A study of Mus musculus with 18 samples.

Results

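The genes described here are the 6 acute-phase genes Saa1, Saa2, Saa3, Saa4, Lcn2 and Hp, taken by symbol from a count table of 55401 genes. All 6 were matched and all 6 passed the filter on low counts. They were selected on their measured levels in the control CCR2+ libraries, above all in library 3 of that group, so their levels there are given as a description without a test. RNA was sequenced with the SMART-Seq v4 low-input kit from cardiac resident macrophages (CRMs), the tissue macrophages of the heart, sorted from the left ventricle with antibodies against CD11b, CX3CR1 and CCR2. The sort split them into CCR2- CRMs and CCR2+ CRMs, the latter carrying the chemokine receptor that recruits monocytes from blood. Each subset was taken from control, aged and high-fat diet mice, with 3 libraries in each of the 6 groups. The study's methods describe female C57BL/6J mice of 3 months (young, read here as the control mice) and of 20 months (aged), on normal chow. They do not describe the mice on the high-fat diet, whose age and time on the diet are not given in the sources used here. The labels do not tie a library to an animal. The study counts n in mice for marker levels of the isolated CRMs at the 2 ages, without tying each library to a mouse, and not for the high-fat diet. The p-values therefore measure the spread between these libraries, which may be partly technical. In such bulk libraries fewer cells of a type and less RNA per cell cannot be told apart.

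Acute-phase proteins are plasma proteins whose synthesis in the liver is switched by the cytokines IL-6, IL-1 and TNF during infection or injury. Serum amyloid A proteins are small lipoprotein-bound members of this group. In mice, Saa1 and Saa2 are made mainly in the liver, Saa3 is made outside it by macrophages and fat, and Saa4 is the constitutive form. Lcn2 encodes lipocalin 2, which binds the iron carriers of bacteria and is stored in granules of neutrophils. Hp encodes haptoglobin, which binds free haemoglobin, and the complex is taken up through the macrophage receptor CD163.

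Coordinates are on GRCm38 with GENCODE M21 annotation. Each member is a protein-coding gene that overlaps no other annotated gene. The 4 serum amyloid A genes lie side by side on chromosome 7. They are Saa3 (ENSMUSG00000040026, 46711998 to 46715700, minus strand), Saa4 (ENSMUSG00000040017, 46727998 to 46732603, minus strand), Saa1 (ENSMUSG00000074115, 46740497 to 46742980, minus strand) and Saa2 (ENSMUSG00000057465, 46751790 to 46754313, plus strand). Lcn2 (ENSMUSG00000026822) lies on chromosome 2 from 32384633 to 32388252 on the minus strand. Hp (ENSMUSG00000031722) lies on chromosome 8 from 109575128 to 109579172 on the minus strand.

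The coding sequences of Saa1 and Saa2 are both 369 bases long and match at 351 of 369 positions, with a longest identical run of 73 bases. Over the whole coding transcripts 572 of 609 aligned positions match, and the longest identical run is 99 bases, shorter than the sequenced reads of 150 bases. The coding sequence of Saa3 matches that of Saa1 at only 287 of 377 aligned positions. The 120 coding bases in which Saa1 and Saa2 differ most are shown because they hold letters by which reads of the pair can be told apart. They are coding positions 70 to 189, counted from the first base of the start codon, with the 12 bases that differ in capitals. The stretch spans an intron, from chr7:46741297-46742453 (minus strand) in Saa1 and from chr7:46752360-46753515 (plus strand) in Saa2.
Saa1: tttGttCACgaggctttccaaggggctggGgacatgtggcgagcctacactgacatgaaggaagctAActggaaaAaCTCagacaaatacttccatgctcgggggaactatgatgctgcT
Saa2: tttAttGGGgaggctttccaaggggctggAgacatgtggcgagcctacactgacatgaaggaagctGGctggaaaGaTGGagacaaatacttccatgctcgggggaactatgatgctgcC
The handling of reads that fit both genes is not given in the sources used here. The split of counts between Saa1 and Saa2 is therefore uncertain, whereas the other members are less alike to them.

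The promoters are shown because the levels of Saa1 and Saa2 varied together across libraries and those of Saa3 did not follow them. RefSeq promoters (GRCm38.p6) were matched for 5 of the 6 members, all but Hp. In the 250 bases before the start, Saa1 and Saa2 matched at 238 of 251 aligned positions, and Saa1 and Saa3 at 130 of 268. The windows run from 200 to 51 bases before the start, 5′ to 3′ on the gene's strand, and capitals mark the letters TTGCNNAA on either strand, the kind of site bound by C/EBP factors. They lie at chr7:46743031-46743180 (minus strand, Saa1), chr7:46751633-46751782 (plus strand, Saa2) and chr7:46715727-46715876 (minus strand, Saa3).
Saa1: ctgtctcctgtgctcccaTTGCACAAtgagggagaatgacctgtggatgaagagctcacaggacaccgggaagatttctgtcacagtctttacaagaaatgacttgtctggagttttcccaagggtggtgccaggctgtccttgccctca
Saa2: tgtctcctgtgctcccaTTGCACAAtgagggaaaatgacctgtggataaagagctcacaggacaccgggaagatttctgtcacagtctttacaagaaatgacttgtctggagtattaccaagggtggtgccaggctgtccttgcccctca
Saa3: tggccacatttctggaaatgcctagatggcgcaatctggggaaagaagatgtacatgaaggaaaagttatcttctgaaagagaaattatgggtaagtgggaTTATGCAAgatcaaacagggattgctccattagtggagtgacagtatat
The letters TTGCNNAA occurred in the 250 bases before the start of all 5 matched members, with 2 matches in Saa4 and 1 in each of the others, and in 9.56% of the 32851 promoters of the table. The first matching base lay at -182 in Saa1, -183 in Saa2, -99 in Saa3 and -216 in Lcn2. The STAT letters TTCNNNGAA, searched on both strands and present in 7.02% of all promoters, and the kappa B consensus, present in 7.25%, were not in these windows of the 5 members.

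The 18 libraries held 39753911 to 56541280 counts, so that 3 counts stood for 0.0531 to 0.0755 CPM (counts scaled to a fixed library total) by library size. Levels below are CPM with TMM library sizes, which put the composition of the libraries on a common footing. Control CCR2+ library 3 had the lowest TMM factor of the 18, 0.427, and its CPM by library size alone are 0.427 times those given. They are printed beside the members' means. Macrophage markers summed to 26977 to 123582 CPM, with at least 11 of 12 markers above 1 CPM in every library. Ccr2 was at 2.41 to 98.8 CPM in CCR2- and 85.6 to 345 CPM in CCR2+ libraries, with aged CCR2- library 1 above control CCR2+ library 3. Library 3 of CCR2- CRMs stood apart in another way: of genes at least 2-fold apart between libraries 1 and 2, it lay between them for 99.4% (control) and 99.1% (aged), against 24.8% to 57.3% in the other groups, so the larger differences of members that involve control or aged CCR2- CRMs are also given without it. Markers of hepatocytes, 9 genes of which Fgb and Apoa1 are also on the acute-phase lists below, summed to 22816 CPM in control CCR2+ library 3 (9731 CPM by library size alone) and 8920 CPM in high-fat diet CCR2+ library 3. They summed to 2139 CPM in control CCR2- library 2 and to at most 676.7 CPM in the other 15 libraries.

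Saa1 was present in every control library and low in nearly all others. Control CCR2- CRMs had 54.2, 80.3 and 42.1 CPM in libraries 1 to 3, and control CCR2+ CRMs had 66.5, 51.2 and 4669.7 CPM. Aged CCR2- CRMs had 7.43, 6.82 and 4.29 CPM and aged CCR2+ CRMs 10.2, 0.0859 and 0.765 CPM. High-fat diet CCR2- CRMs had 5.30, 0.249 and 1.05 CPM and high-fat diet CCR2+ CRMs 1.44, 1.61 and 97.5 CPM. The high value in control CCR2+ and that in high-fat diet CCR2+ CRMs each came from library 3. The other 5 control libraries lay close together. In CCR2- CRMs all aged libraries lay below all control libraries, in a comparison where 28.1% of all genes tested had groups without overlap in either direction.

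The control CCR2+ mean of Saa1, 1596 ± 2662 CPM (SD, n = 3), therefore stood on 1 library. Without library 3 it was 58.8 CPM, next to 58.9 ± 19.5 CPM (SD, n = 3) in control CCR2- CRMs. By library size alone the mean with library 3 was 694 CPM, and library 3 itself was at 1992 CPM. Ordered by group median, control CCR2+ was followed by control CCR2-, aged CCR2-, high-fat diet CCR2+, high-fat diet CCR2- and aged CCR2+ CRMs. In that order the only neighbours without overlap were control CCR2- and aged CCR2- CRMs.

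**Figure D1:**
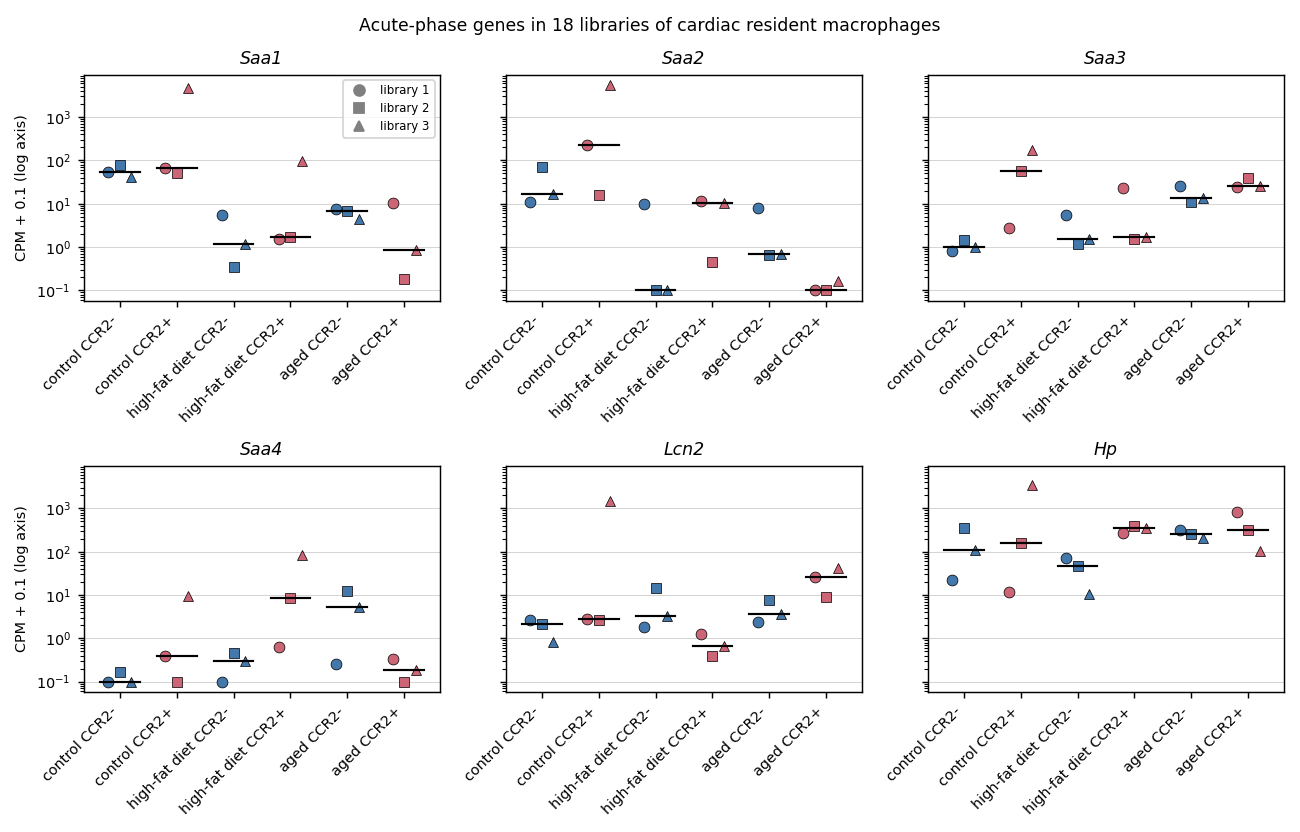
Level of each member in the 18 libraries, as CPM plus 0.1 on a log axis, by group. Each symbol is 1 library (its shape gives the library number, blue for CCR2- and red for CCR2+) and the bar is the group median. Control CCR2+ library 3 is the highest of the 18 libraries for Saa1 (4669.7 CPM), Saa2 (5571 CPM), Saa3 (174 CPM), Lcn2 (1513 CPM) and Hp (3413 CPM), but not for Saa4.

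Saa2 had a similar pattern with wider spread. Control CCR2- CRMs had 10.9, 70.8 and 17.1 CPM and control CCR2+ CRMs had 224, 16.2 and 5571 CPM. Aged CCR2- CRMs had 7.71, 0.553 and 0.598 CPM, and aged CCR2+ CRMs had 0, 0 and 0.0621 CPM, which is 3 counts in all. High-fat diet CCR2- CRMs had 9.97, 0 and 0 CPM and high-fat diet CCR2+ CRMs 11.3, 0.355 and 10.2 CPM. In CCR2- CRMs all control libraries lay above all aged libraries, as for Saa1, beside the same 28.1% of all genes tested.

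The control CCR2+ mean of Saa2 was 1937 ± 3149 CPM (SD, n = 3), and 120 CPM without library 3. By library size alone the mean with library 3 was 848 CPM, and library 3 itself was at 2376 CPM. Libraries 2 and 3 of the high-fat diet CCR2- CRMs, with 0 counts, allow up to 0.0579 and 0.0552 CPM by library size. By group median control CCR2+ and control CCR2- CRMs came first, followed by high-fat diet CCR2+ and aged CCR2- CRMs, and all neighbours overlapped. Across the 18 libraries Saa2 tracked Saa1 with a Pearson r of 0.89 on log2(CPM + 1), and 0.78 without control CCR2+ library 3. The points share the same library sizes and may share reads of these near-identical genes, and no test was made. The share of Saa2 in the counts of the pair ranged from 0% to 88.7% over the libraries.

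Saa3, the form made by macrophages, did not follow Saa1 and Saa2. Control CCR2- CRMs had 0.733, 1.35 and 0.894 CPM, the lowest group by median. Aged CCR2- CRMs had 25.6, 11.05 and 13.6 CPM and aged CCR2+ CRMs had 24.9, 39.7 and 26.3 CPM. High-fat diet CCR2- CRMs had 5.40, 1.10 and 1.46 CPM and high-fat diet CCR2+ CRMs 23.1, 1.42 and 1.58 CPM. Control CCR2+ CRMs spread widest, with 2.65, 57.5 and 174 CPM. All aged libraries were above 10 CPM, and the aged CCR2- libraries lay above all control CCR2- libraries.

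By group median the order of Saa3 was control CCR2+, aged CCR2+, aged CCR2-, high-fat diet CCR2+, high-fat diet CCR2- and control CCR2- CRMs, and every pair of neighbours overlapped. The control CCR2+ mean, 78.0 ± 87.4 CPM (SD, n = 3), was 30.1 CPM without library 3. By library size alone it was 42.1 CPM, with 74.2 CPM in library 3. Library 2 of that group, at 57.5 CPM of Saa3, also had the highest sums of mesothelial markers (728 CPM) and fibroblast markers (1042 CPM). Of the mesothelial markers only 3 of 10 were above 1 CPM there, with 680 CPM from Krt8 alone. Of the fibroblast markers 5 of 9 were above 1 CPM. The adipocyte markers were highest in control CCR2- library 1 (273 CPM), where Saa3 was at 0.733 CPM. In that library 3 of 6 adipocyte markers were above 1 CPM, with 253 CPM from Cfd alone and 0 of Adipoq and Plin1. Whether these cells were present, and their part in the result, was not tested. Pearson r of Saa3 on log2(CPM + 1) over the 18 libraries was 0.17 with Saa1 and 0.63 with Lcn2, and -0.30 and 0.42 without control CCR2+ library 3.

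The makeup of the serum amyloid A counts was compared as well, since a share within a library does not depend on the scaling between libraries. Of the counts of Saa1, Saa2 and Saa3 together, Saa3 made up 1.11%, 0.886% and 1.49% in the control CCR2- libraries. It made up 62.9%, 59.98% and 73.6% in the aged CCR2- libraries and 70.9%, 99.8% and 96.9% in the aged CCR2+ libraries. In the high-fat diet it was 26.1%, 81.6% and 58.1% in the CCR2- libraries and 64.4%, 42.0% and 1.45% in the CCR2+ libraries. In control CCR2+ CRMs it was 0.905%, 46.1% and 1.67%. The shares in control CCR2- CRMs lay below those of both other CCR2- groups without overlap.

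The 95% Wilson intervals, which cover counting error only, were narrow beside these gaps. The widest was 49.5% to 66.3%, for high-fat diet CCR2- library 3 with only 129 counts of the 3 genes. Between aged and control CCR2- CRMs the mean share differed by 64.3 percentage points, and between high-fat diet and control CCR2- CRMs by 54.1 points. Each had p = 0.1 in a two-sided exact permutation test, the smallest that 3 against 3 libraries can give. Between CCR2+ and CCR2- CRMs the exact permutation test gave p = 0.2 in aged mice and p = 0.5 in high-fat diet mice. Without library 3 of control and aged CCR2- CRMs, the differences were 60.4 points for aging and 54.3 points for the high-fat diet, and 27.8 points between the aged subsets. These had p = 0.333, p = 0.2 and p = 0.2 in the exact permutation test, and none of these smaller designs can reach 0.05. Per kilobase of coding transcript, the median level in control CCR2- CRMs was 89.1 CPM for Saa1 and 1.61 CPM for Saa3. In aged CCR2- CRMs it was 11.2 CPM for Saa1 and 24.5 CPM for Saa3.

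**Figure D2:**
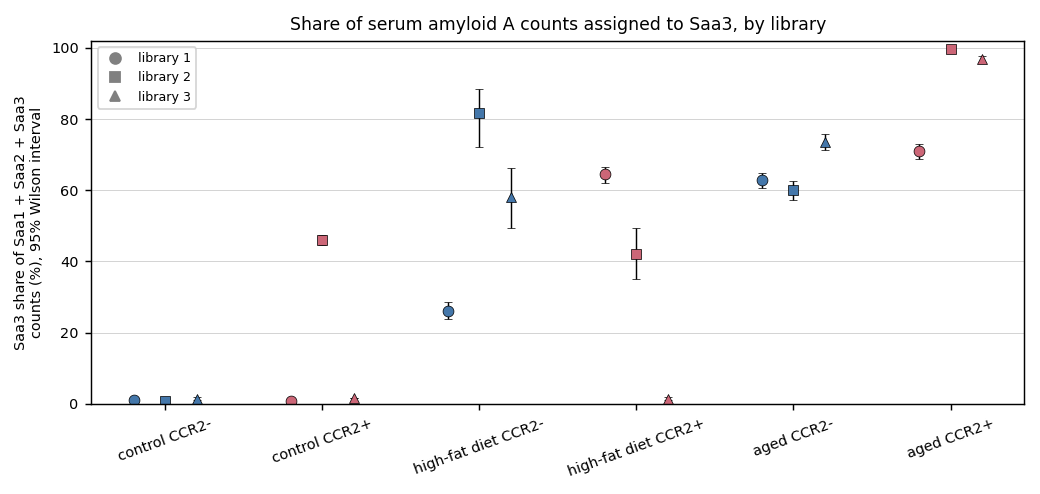
Share of the summed counts of Saa1, Saa2 and Saa3 that was assigned to Saa3 in each of the 18 libraries, in percent, with 95% Wilson intervals. The 3 control CCR2- libraries lie between 0.886% and 1.49%, the 6 aged libraries between 59.98% and 99.8%, and the other 9 libraries between 0.905% and 81.6%.

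Saa4, the constitutive form, was near the limit of detection in most libraries. Control CCR2- CRMs had 0, 0.0711 and 0 CPM and aged CCR2+ CRMs 0.242, 0 and 0.0827 CPM. Aged CCR2- CRMs had 0.160, 12.1 and 5.21 CPM, and control CCR2+ CRMs 0.283, 0 and 9.45 CPM. High-fat diet CCR2- CRMs had 0, 0.357 and 0.195 CPM, and high-fat diet CCR2+ CRMs 0.536, 8.30 and 84.1 CPM. The highest library was thus high-fat diet CCR2+ library 3, and not the library that led the other members. By library size alone control CCR2+ library 3 was at 4.03 CPM of Saa4.

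By group median high-fat diet CCR2+ CRMs came first and control CCR2- CRMs last, and all neighbours in that order overlapped. Between Saa4 and the hepatocyte sum, Pearson r on log2(CPM + 1) was 0.66 over the 18 libraries and 0.63 without control CCR2+ library 3. For Saa1 these were 0.73 and 0.53, for Saa2 0.63 and 0.34, for Hp 0.54 and 0.32, for Lcn2 0.34 and -0.36, and for Saa3 0.08 and -0.36. The points are libraries that share a scaling, and these values are a description.

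Lcn2 stayed below 15 CPM outside aged CCR2+ CRMs and control CCR2+ library 3. Control CCR2- CRMs had 2.59, 2.04 and 0.725 CPM and control CCR2+ CRMs 2.76, 2.52 and 1513 CPM. Aged CCR2- CRMs had 2.34, 7.52 and 3.49 CPM and aged CCR2+ CRMs 26.2, 8.89 and 43.1 CPM. High-fat diet CCR2- CRMs had 1.77, 14.2 and 3.14 CPM and high-fat diet CCR2+ CRMs 1.13, 0.299 and 0.559 CPM. Aged CCR2+ CRMs lay above aged CCR2- CRMs without overlap, whereas high-fat diet CCR2+ CRMs lay below high-fat diet CCR2- CRMs without overlap. High-fat diet CCR2- library 2, at 14.2 CPM, lay above aged CCR2+ library 2.

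The control CCR2+ mean of Lcn2, 506 ± 872 CPM (SD, n = 3), was 2.64 CPM without library 3. By library size alone it was 217 CPM, with 645 CPM in library 3. By group median aged CCR2+ CRMs came first, above aged CCR2- CRMs without overlap, and the further neighbours overlapped. Neutrophil markers summed to 1151 CPM in control CCR2+ library 3, the highest of the 18 libraries, where 6 of 13 were above 1 CPM. Mmp9, S100a9, S100a8 and Retnlg were at 396, 264, 248 and 237 CPM there, and Csf3r and Mmp8 at 1.90 and 1.08 CPM. Ly6g, Mpo, Elane, Ltf and Camp were at 0. In the other libraries these markers summed to 32.3 to 751 CPM. They summed to 248 to 628 CPM in aged CCR2+ and 508 to 751 CPM in aged CCR2- CRMs, with overlap. In high-fat diet mice they summed to 78.8 to 369 CPM in CCR2+ and 200 to 565 CPM in CCR2- CRMs, also with overlap. The highest of these, 565 CPM, was high-fat diet CCR2- library 2. The part of neutrophils in the levels of Lcn2 was not tested.

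Hp was detected in every library, at 10.8 CPM or more. Control CCR2- CRMs had 22.0, 348 and 112 CPM and control CCR2+ CRMs 11.4, 157 and 3413 CPM. Aged CCR2- CRMs had 324, 251 and 212 CPM and aged CCR2+ CRMs 834, 319 and 103 CPM. High-fat diet CCR2- CRMs had 70.8, 46.0 and 10.8 CPM, the lowest group by median, and high-fat diet CCR2+ CRMs had 273, 390 and 350 CPM, the highest by median. All neighbours in the order of medians overlapped, while the high-fat diet subsets, at its ends, did not.

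The control CCR2+ mean of Hp, 1194 ± 1923 CPM (SD, n = 3), was 84.1 CPM without library 3 and 534 CPM by library size alone, with 1456 CPM in library 3. In aged CCR2- CRMs the spread was small, 262 ± 56.9 CPM (SD, n = 3), and by library size alone the libraries had 308, 321 and 309 CPM. Markers of monocytes summed to 1316 to 3486 CPM in high-fat diet CCR2+ and 191 to 562 CPM in high-fat diet CCR2- CRMs. Their part in the difference was not tested.

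**Figure D3:**
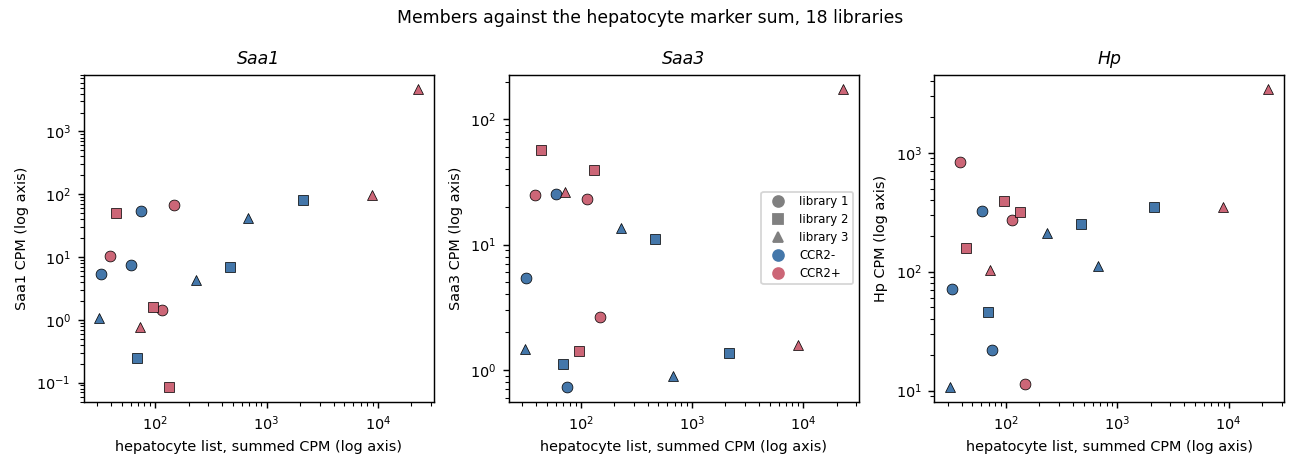
Saa1, Saa3 and Hp (CPM, log axis) against the summed CPM of 9 hepatocyte markers (log axis) in the 18 libraries, blue for CCR2- and red for CCR2+, shape by library number. In control CCR2- libraries 1 to 3 the hepatocyte sum is 75.2, 2139 and 677 CPM. Saa1 is at 54.2, 80.3 and 42.1 CPM there, Saa3 at 0.733, 1.35 and 0.894 CPM and Hp at 22.0, 348 and 112 CPM.

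The members were tested in the 4 comparisons that hold no control CCR2+ library, within an edgeR quasi-likelihood fit of all 18 libraries and 15456 genes. That fit estimates the spread of each gene between libraries (its dispersion) over all 18 libraries. The control CCR2+ values by which the members were chosen therefore enter their standard errors and p-values, and these tests are not free of that choice. A call needed both an edgeR adjusted p below 0.05 and an absolute log2 fold change greater than 2. No member was called in any of them. At an unadjusted p under 0.05 there were 2 of 6 members for aging in CCR2- CRMs, 1 for the high-fat diet in CCR2- CRMs, 2 between the subsets in aged mice and 2 between the subsets in high-fat diet mice. The spread between libraries was large, with a median dispersion per gene of 1.42, and the standard errors of the members' log2 fold changes were 1.24 to 2.90.

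For aging in CCR2- CRMs, Saa3 was higher by 4.08 ± 1.43 on the log2 scale (SE; edgeR adjusted p = 0.128) and Saa4 by 7.87 ± 2.90 (adjusted p = 0.136). Saa1 was at -3.25 ± 1.82 (adjusted p = 0.310) and Saa2 at -3.48 ± 2.14 (adjusted p = 0.363). Saa3 and Saa4 were higher, and Saa1 and Saa2 lower, in all 3 aged than in all 3 control libraries. Lcn2 (1.32 ± 1.52) and Hp (0.71 ± 1.24) overlapped. These 4 of 6 members without overlap stand beside 28.1% of all genes tested. EdgeR called 0% of all genes, with 3382 at an unadjusted p under 0.05. Saa4 had only 3 counts in the control libraries against 1236 in the aged, a ratio of 309 with an exact interval of 105 to 1500 for counting error only.

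DESeq2, the tool of the study, called 2763 of 14208 genes in this comparison. Among them were Saa3 (3.67 ± 1.19, adjusted p = 0.0145) and Saa4 (7.33 ± 2.16, adjusted p = 0.00633). An edgeR fit of the 6 compared libraries alone, which holds no control CCR2+ library, called 915 of 12544 genes. Among them were Saa3 (4.23 ± 0.89, adjusted p = 0.0354) and Saa1 (-3.09 ± 0.67, adjusted p = 0.0387). Like the main result, these fits take library 3 of the CCR2- CRMs as independent of libraries 1 and 2. Without it at both ages, edgeR over the remaining libraries gave 4.14 for Saa3 (adjusted p = 0.398), -3.23 for Saa1 (adjusted p = 0.538), -3.30 for Saa2 (adjusted p = 0.592) and 7.36 for Saa4 (adjusted p = 0.400). Markers of monocytes summed to 1373 to 2487 CPM in aged and 566 to 752 CPM in control CCR2- CRMs, and macrophage markers to 28346 to 46309 CPM and 47062 to 68429 CPM. Lyz2 was the largest part of the macrophage sum, at 14192 to 20242 CPM in aged and 28398 to 39064 CPM in control libraries. Mrc1 was also lower in aged libraries without overlap. Cx3cr1 and Fcgr1 were higher without overlap, and the other macrophage markers overlapped. The part of monocytes and macrophages in the differences was not tested.

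For the high-fat diet in CCR2- CRMs, Saa1 was at -4.74 ± 1.95 (adjusted p = 0.218) and Saa2 at -3.31 ± 2.12 (adjusted p = 0.402), both lower in all 3 high-fat diet than in all 3 control libraries. These 2 of 6 members without overlap stand beside 21.3% of all genes tested. EdgeR called 0% of all genes, with 2895 at an unadjusted p under 0.05, where DESeq2 called 1898 of 14208 genes and no member. Saa3 (1.42 ± 1.29), Saa4 (2.90 ± 2.39), Lcn2 (1.84 ± 1.54) and Hp (-1.92 ± 1.27) overlapped between the groups. This comparison and the last share the control CCR2- libraries. Without library 3 of the control CCR2- CRMs and of the aged CCR2- CRMs, Saa1 was at -4.93 (edgeR adjusted p = 0.484) and Saa2 at -3.61 (adjusted p = 0.537).

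Between CCR2+ and CCR2- CRMs of aged mice, Saa2 was at -7.09 ± 2.69 (adjusted p = 0.328) and Lcn2 at 2.55 ± 1.57 (adjusted p = 0.508), without overlap in either. These 2 of 6 members stand beside 14.9% of all genes. EdgeR called 0% of all genes, with 2180 at an unadjusted p under 0.05, where DESeq2 called 1239 of 14208 genes. The fold of Saa2 rests on 3 counts in CCR2+ against 471 in CCR2- CRMs, a ratio of 131 with an exact interval of 44.5 to 637 for counting error only. Saa4 was at -5.72 ± 2.60 (adjusted p = 0.337), with overlap, and Saa1 (-0.74 ± 1.68), Saa3 (0.85 ± 1.27) and Hp (0.67 ± 1.24) were nearer to 0. DESeq2 called Saa2 (-6.98 ± 2.16, adjusted p = 0.0201). Without library 3 of the control and aged CCR2- CRMs, edgeR gave -7.56 for Saa2 (adjusted p = 0.520), 2.39 for Lcn2 (adjusted p = 0.669) and -5.80 for Saa4 (adjusted p = 0.520).

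Between CCR2+ and CCR2- CRMs of high-fat diet mice, Saa4 was at 7.37 ± 2.79 (adjusted p = 0.345), Hp at 2.99 ± 1.33 (adjusted p = 0.355) and Lcn2 at -3.26 ± 1.63 (adjusted p = 0.391), without overlap. These 3 of 6 members stand beside 13.3% of all genes. EdgeR called 0.0129% of all genes, 2 in number, with 2071 at an unadjusted p under 0.05, where DESeq2 called 916 of 14208 genes. Saa1 was at 3.93 ± 1.88 (adjusted p = 0.374), which turned to -0.53 without high-fat diet CCR2+ library 3. Saa3 was at 1.71 ± 1.30 (adjusted p = 0.618), which turned to -0.83 without high-fat diet CCR2+ library 1. Saa2 was at 1.13 ± 1.96 (adjusted p = 0.878). DESeq2 called Saa4 (7.81 ± 2.04, adjusted p = 0.00601).

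**Figure D4:**
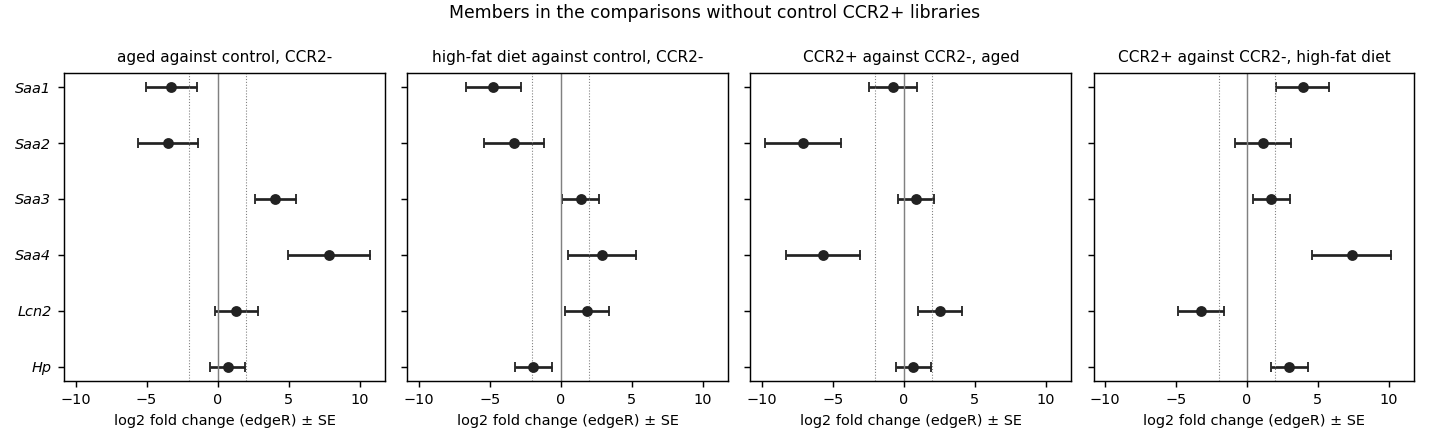
Log2 fold change of each member by edgeR in the 4 comparisons without control CCR2+ libraries, with standard errors as bars and dotted lines at 2 and -2. In CCR2- CRMs of aged against control mice, Saa1 (-3.25) and Saa2 (-3.48) lie on the other side of 0 from Saa3 (4.08) and Saa4 (7.87), and no member passed the adjusted threshold.

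Of the other genes of the response, 28 further acute-phase genes were listed and 24 were tested. None was called by edgeR in any of the 7 comparisons, including the 3 with control CCR2+ libraries. For aging in CCR2- CRMs, 5 were higher and 3 lower at an unadjusted p under 0.05, with a median log2 fold change of -0.68 against -0.16 for all genes. For aging in CCR2+ CRMs 0 were higher and 10 lower, with a median of -2.22 against 0 for all genes. Control CCR2+ library 3, in view when the members were chosen, held 5449.8, 2953 and 1727 CPM of Fgg, Hpx and Orm1. In libraries 1 and 2 of that group these genes were at 46.3 CPM or less. The part of library 3 in these counts was not tested. For the high-fat diet, 1 was higher and 5 lower in the CCR2- subset, and 1 higher and 3 lower in the CCR2+ subset. In CCR2+ against CCR2- CRMs, 9 were higher and 1 lower in control, 0 higher and 3 lower in aged, and 7 higher and 1 lower in high-fat diet mice. In high-fat diet CCR2+ libraries 1 to 3 Fgg was at 5.01, 5.18 and 1255 CPM. Of all 15456 genes, 3382 and 4122 had an unadjusted p under 0.05 for aging in CCR2- and CCR2+ CRMs. These were 2895 and 3793 for the high-fat diet, and 4302, 2180 and 2071 between the subsets of control, aged and high-fat diet mice.

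Of the 28 genes, 14 were above 100 CPM in control CCR2+ library 3 and are named for that, so their height there follows from the choice. In that library the fibrinogen chains Fga, Fgb and Fgg were at 1831, 3038 and 5449.8 CPM, the plasma proteins Orm1 and Hpx at 1727 and 2953 CPM, and Apcs, the pentraxin of mouse serum, at 391 CPM. Itih3, Itih4 and Hamp, which encodes the iron regulator hepcidin, were at 194, 332 and 247 CPM. High-fat diet CCR2+ library 3 carried part of this set, with 1255 CPM of Fgg, 236 CPM of Orm1 and 232 CPM of Hpx, but 0 of Itih3 and 2.36 CPM of Itih4. Other genes of the list, chosen after their values were seen, did not share this: Crp was at 2.62 CPM in the control and 67.04 CPM in the high-fat diet library, Serpina3n was at 11.1 and 29.8 CPM, and Lbp and Orm2 had 0 in both. Across the remaining libraries, the 9 named genes reached at most 129 CPM. In control CCR2+ library 3 Alb was at 7338 CPM, Ttr at 2963 CPM and Tat at 0. The part of liver RNA in the members' levels was not tested.

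**Figure D5:**
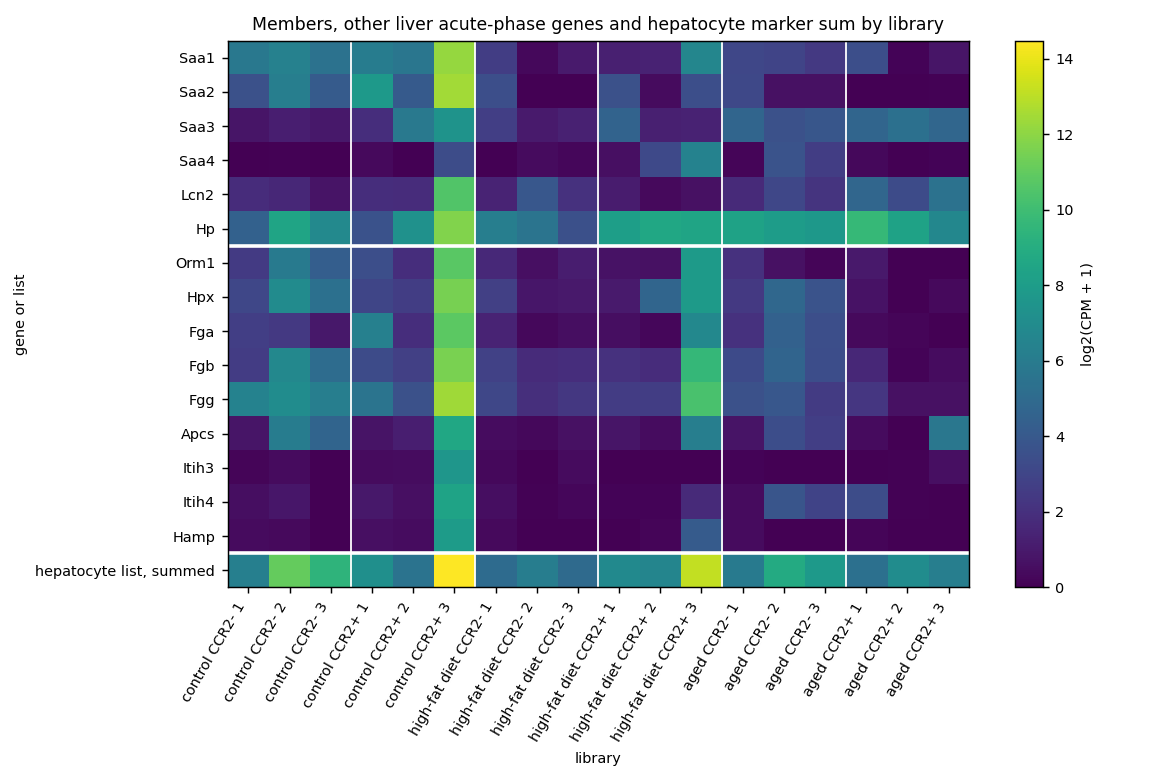
Level as log2(CPM + 1) of the 6 members (top), 9 other liver acute-phase genes (middle) and the summed hepatocyte markers (bottom) in each of the 18 libraries. Control CCR2+ library 3 is bright in every row but Saa4. Saa3 and Lcn2 are also visible in the aged CCR2+ libraries. The 9 genes of the middle block are dark there except for Apcs in library 3 and Itih4 in library 1. Hp (834, 319 and 103 CPM) and the hepatocyte sum (39.0, 133 and 72.5 CPM) are not dark in aged CCR2+ libraries 1 to 3.

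The other 5 of the 14 were Cfb, Mt1, Mt2, C3 and Cd14, which were also highest in control CCR2+ library 3, at 806, 4257, 635, 924 and 21129.9 CPM. Cfb, complement factor B, had 3.19, 6.33 and 4.10 CPM in control CCR2- CRMs and 340, 363 and 278 CPM in aged CCR2- CRMs (6.17 ± 1.91, adjusted p = 0.114). The metallothioneins Mt1 and Mt2, which bind zinc, were at -1.82 ± 0.52 (adjusted p = 0.114) and -2.26 ± 0.73 (adjusted p = 0.118) in that comparison. Mt1 was at 1350 to 2149 CPM in control and 374 to 743 CPM in aged CCR2- CRMs, without overlap. C3, the central complement component, ran from 1.25 to 924 CPM. Cd14, the receptor that presents lipopolysaccharide to Toll-like receptor 4, was abundant in every library at 2874 to 21129.9 CPM.

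The cytokines that drive the response and their signaling made up 24 genes, all tested. Stat3, the transcription factor activated by IL-6, was called in 2 comparisons by edgeR. It had 14.8, 8.64 and 13.3 CPM in control CCR2+ and 252, 108 and 145 CPM in control CCR2- CRMs, and its difference was -3.78 ± 0.74 (adjusted p = 0.0266). It had 57.3, 180 and 404 CPM in high-fat diet CCR2+ CRMs and its difference from control CCR2+ CRMs was 4.13 ± 0.76 (adjusted p = 0.0355). Over the 3 lists no gene was called in either comparison with RLE factors, with a replicate block, with only the 6 libraries compared or without library 3 of the control and aged CCR2- CRMs, so neither Stat3 call held there. EdgeR called 0.123% of all genes in the latter and 0.673% in the former, split into 47 higher and 57 lower, a split that became 97 and 11 with RLE factors and 44 and 214 with library size alone. For aging in CCR2+ CRMs Stat3 was at 3.30 ± 0.73 (edgeR adjusted p = 0.0797). There edgeR called 0% of all genes, with 4122 at an unadjusted p under 0.05, where DESeq2 called 3034 of 14208 genes.

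Of the 15 receptors and partners of the products, 13 were tested. Cd163, the scavenger receptor for the complex of haptoglobin and haemoglobin, was called between the control subsets, at 3.45, 3.01 and 6.16 CPM in CCR2+ and 245, 260 and 189 CPM in CCR2- CRMs (-5.78 ± 1.30, adjusted p = 0.0477). In aged CCR2- CRMs it had 40.8, 24.5 and 17.97 CPM (-3.06 ± 1.14 against control, adjusted p = 0.140). EdgeR called none of the other 12 in any comparison. The number of calls between control subsets changed when single libraries were left out, which also leaves fewer libraries in a group. Over the 3 lists 2 genes were called there, against 0 without library 1 or library 3 of the control CCR2- CRMs. The count was 1 without library 2 of that group or library 3 of the control CCR2+ CRMs, and 4 without library 1 of the control CCR2+ CRMs. In high-fat diet against control CCR2+ CRMs the count was 1, and 0 without library 2 or 3 of the control or without any 1 of the 3 high-fat diet libraries.

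The genes whose log2(CPM + 1) was most like each member over the 18 libraries were found by Pearson r, as a description. For Saa1 they were Fgg (0.92), Orm1 (0.90) and Pomp (0.90), of which Fgg and Orm1 are liver acute-phase genes, and without control CCR2+ library 3 these r were 0.87, 0.82 and 0.82. For Saa2 they were Gm11273 (0.94), Tmem243 (0.92) and Gm12338 (0.91). For Saa3 they were Ruvbl1 (0.83), the glycolytic enzyme Pkm (0.83) and Hpcal1 (0.82), and 0.80, 0.75 and 0.76 without that library. For Saa4 they were Pzp (0.87) and the cytochromes Cyp3a41a (0.87) and Cyp3a41b (0.87), all 3 known from liver, with r of 0.86, 0.93 and 0.93 without that library. For Lcn2 they were Aak1 (0.92), Gm49499 (0.89) and 1810024B03Rik (0.88), which dropped to 0.74, 0.74 and 0.65. For Hp they were Sssca1 (0.81), the proteasome subunit Psma4 (0.81) and Mxd1 (0.80). No gene of the acute-phase lists was among those of Saa2, Saa3, Lcn2 and Hp.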

How the data were processed

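RNA was measured in 18 SMART-Seq libraries of sorted mouse CRMs. Reads were trimmed (Cutadapt), aligned to the mouse genome and transcriptome of Ensembl release 101 (HISAT2) and assembled (StringTie) by the authors, whose deposited table holds raw counts, whole numbers for each gene. Groups were taken from the sample titles. Symbols and positions were taken from GENCODE M21, where 260 of 55401 genes had no symbol. The members, gene lists, tests and comparisons were chosen with earlier results of these data known.

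Counts were filtered with filterByExpr, scaled with TMM factors and tested with the quasi-likelihood test of edgeR 4.0.16 in R 4.3.3, with 1 term per group, all 18 libraries and Benjamini-Hochberg adjustment over 15456 genes. edgeR was tested on simulated data. Named genes are the members, the list genes that were called (where none was, the 3 with the highest mean CPM and those above 100 CPM in the library with the most Saa1 or Saa2), and the 3 genes most like each member by Pearson r of log2(CPM + 1). Sequences came from GENCODE and RefSeq on GRCm38. Alternatives were DESeq2 1.42.0, RLE factors or library size alone, no filter, subsets of libraries, robust dispersions, a replicate block and libraries left out in turn.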

Additional observations from a re-analysis of the deposited data

Results flagged for a closer look

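Lcn2 was marked because its difference between the subsets went opposite ways in aged and high-fat diet mice, with every aged CCR2+ library (8.89 to 43.1 CPM) above every aged CCR2- library (2.34 to 7.52 CPM) and every high-fat diet CCR2+ library (0.299 to 1.13 CPM) below every high-fat diet CCR2- library (1.77 to 14.2 CPM). The subset difference was 5.81 ± 2.26 (SE, log2 scale) larger in aged mice by an interaction term in edgeR, chosen after seeing the data, with an unadjusted p = 0.0195 and an adjusted p = 0.230. That term was called for 0 genes of 15456, with 2294 at an unadjusted p under 0.05, and was not run with another tool. The same term was -13.09 ± 3.81 for Saa4 (edgeR unadjusted p = 0.00295, adjusted p = 0.170) and -8.22 ± 3.29 for Saa2 (unadjusted p = 0.0224, adjusted p = 0.242), whose libraries overlapped between the subsets in at least 1 of the 2 comparisons. Groups of 3 libraries were not searched for outlying libraries.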

How the results depend on the processing

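In the 4 tested comparisons no member was called in the result as reported, and this count stayed at 0 in 66 of 70 recomputations. Among them were RLE factors, library size alone, no filter, robust dispersions, an adjusted p alone and each library of the compared groups left out in turn. In these comparisons control CCR2+ library 3 was left out only together with other libraries. Apart from the fits of only the 6 libraries compared, every setting kept control CCR2+ libraries in the estimate of spread. The members were chosen by their levels in those libraries, so these recomputations are not independent checks. With Saa1 and Saa2 summed, the count covered Saa3, Saa4, Lcn2 and Hp, and not the sum. DESeq2 called 2 members for aging in CCR2- CRMs and 1 in each of the subset comparisons of aged and high-fat diet mice, and a fit of only the 6 libraries compared called 2 for aging in CCR2- CRMs. Over all genes DESeq2 called 2763, 1239 and 916 of 14208 in these comparisons, and the 6-library fit 915 of 12544. The log2 fold changes of the members kept their sign in 382 of 386 recomputations. The exceptions were Saa1 between the subsets in high-fat diet mice, -0.53 without high-fat diet CCR2+ library 3 (up to 5.68 without another library) and -0.43 without library 3 of both control and high-fat diet CCR2+ CRMs (chosen after seeing the data), Saa3 there, -0.83 without high-fat diet CCR2+ library 1 (up to 2.76), and Hp between the subsets in aged mice, -0.31 without aged CCR2+ library 1 (up to 1.13). The group mean of Saa1 in control CCR2+ CRMs went from 1596 to 58.8 CPM without library 3.

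The calls among the genes of the 3 lists (other acute-phase genes, cytokines with their signaling, receptors and partners) depended on the settings, and the cause was not tested. Of their 67 genes, 61 passed the filter. DESeq2 called 12 for aging in CCR2- CRMs, 11 for aging in CCR2+ CRMs, 6 and 9 for the high-fat diet in CCR2- and CCR2+ CRMs, and 12, 4 and 4 between the subsets of control, aged and high-fat diet mice. EdgeR called 0, 0, 0, 1, 2, 0 and 0. Over all 14208 genes that it tested, DESeq2 called 2763, 3034, 1898, 2697, 3547, 1239 and 916 in the same order. Without the filter edgeR called 1 for aging in CCR2- CRMs, 11 for aging in CCR2+ CRMs, 3 for the high-fat diet in CCR2+ CRMs, and 11 and 4 between the subsets of control and high-fat diet mice. Over all 27008 genes its calls there were 26, 452, 453, 733 and 29. RLE factors gave 7 for aging in CCR2+ CRMs and 0 for the high-fat diet in CCR2+ CRMs and between control subsets, and library size alone gave 1 for aging in CCR2+ CRMs. Over all 15456 genes RLE factors gave 247, 0 and 108 calls in these comparisons, and library size alone gave 303. Only the 6 libraries compared gave 9 for aging in CCR2- CRMs, beside 915 calls over all 12544 genes. They gave 0 for the high-fat diet in CCR2+ CRMs and between control subsets. The last pair was also at 0 without library 3 of CCR2- CRMs of both ages, and the former of the pair at 0 without library 3 of control and high-fat diet CCR2+ CRMs. Leaving out 1 library gave 0 to 2 for aging in CCR2+ CRMs, 0 to 1 for the high-fat diet in CCR2+ CRMs and 0 to 4 between control subsets.

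Replicate numbers are shared between groups. Deviations of libraries with the same number correlated with r from -0.06 to 0.23, and every pair was above 0.1 in 0 of 7 comparisons. Between the aged subsets r was 0.12, 0.03 and 0.23 for libraries 1 to 3. With 3 libraries in a group, these values cannot decide whether libraries of the same number came from the same animal. With a replicate block 0 members were called in the tested comparisons and the counts over the 3 lists were 0 for the high-fat diet in CCR2+ CRMs and between control subsets, while the calls over all genes between control subsets went from 104 to 30. Scaling moved the median of all genes, from -0.16 to -0.58 with RLE factors and to 0.04 with library size alone for aging in CCR2- CRMs, from 0.17 to -0.15 and 0.33 for the high-fat diet there, and from 0.22 to 0.38 and 0.22 and from 0.08 to 0.24 and -0.11 between the subsets of aged and high-fat diet mice. No member changed sign under either scaling. For aging in CCR2+ CRMs the calls over all genes went from 0 to 12 higher and 235 lower with RLE factors and to 293 higher and 10 lower with library size alone. Depth limits Saa4 and the low Saa2 libraries, where a few counts decide a value.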
